A study of Mus musculus with 4 samples.

Results

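The Myc family genes Mycn, Myc and Mycl were examined for nearby peaks of HA-tagged human WDR5. The members were taken by symbol from the mm10 RefSeq annotation, 3 of 21887 protein-coding genes. A peak was counted for a member when its summit lay inside the gene or within 20 kb of either end. By this rule 2 of the 660 peaks of the T48h list belonged to the family, both inside Mycn, and 0 of the 1197 peaks of the T12h list did. The family was chosen with these peaks known, so the presence of the Mycn peaks and their absence at T12h are given as descriptions without a test.

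The samples were mouse embryoid bodies at day 6, derived from the Rx:GFP KI embryonic stem cell line. Differentiation followed SFEBq in GMEM medium with 5% KSR, and 2% matrigel was present from day 1 onwards. All samples were Wdr5 KO and carried a doxycycline-inducible HA-hWDR5, which was switched on at T12h in one group and at T48h in the other. The zero point of these hours is not given in the labels, nor are a clone or the promoter behind the inducible gene. Each group had 1 anti-HA ChIP-seq library and 1 input library, and no group without rescue was used. A difference between the times is therefore a difference between 2 libraries, without a replicate check.

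MYC proteins are transcription factors of the basic helix-loop-helix leucine zipper class that bind DNA as dimers with MAX, often at E-boxes. They drive genes for ribosome production, metabolism and the cell cycle. Mycn is the family member best known from neural progenitors and the early embryo, Myc is expressed in most dividing cells, and Mycl is known from its amplification in small cell lung cancer. WDR5 is a WD-repeat subunit of histone H3 lysine 4 methyltransferase complexes and also contacts MYC proteins directly through a short conserved stretch.

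The sequences around the start sites are shown first, because the T48h peaks at Mycn lay beyond this window and Mycl had no peak. Of the 3 members, 2 matched an entry of the RefSeq promoter table (GRCm38.p6), which gives 250 bases before to 50 bases after a gene's start, and each is written 5′ to 3′ on the strand of its gene. The Mycn window is chr12:12941787-12942086 on the minus strand and the Mycl window is chr4:122995681-122995980 on the plus strand. The third sequence is that of Odc1, which encodes ornithine decarboxylase of polyamine synthesis and is a well-known MYC target gene (chr12:17544623-17544922, plus strand). It is shown because a T12h peak overlapped it. Capitals mark 3 motifs, searched on both strands: the E-box CACGTG, TTTGGCGC, a form of the site bound by E2F factors, and the GC box GGGCGG.
Mycn: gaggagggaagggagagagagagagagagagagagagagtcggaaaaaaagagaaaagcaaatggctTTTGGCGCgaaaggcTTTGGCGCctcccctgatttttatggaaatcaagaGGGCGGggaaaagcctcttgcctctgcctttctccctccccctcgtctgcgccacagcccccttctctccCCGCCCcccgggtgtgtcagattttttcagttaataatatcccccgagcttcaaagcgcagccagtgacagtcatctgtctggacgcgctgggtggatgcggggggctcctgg
Mycl: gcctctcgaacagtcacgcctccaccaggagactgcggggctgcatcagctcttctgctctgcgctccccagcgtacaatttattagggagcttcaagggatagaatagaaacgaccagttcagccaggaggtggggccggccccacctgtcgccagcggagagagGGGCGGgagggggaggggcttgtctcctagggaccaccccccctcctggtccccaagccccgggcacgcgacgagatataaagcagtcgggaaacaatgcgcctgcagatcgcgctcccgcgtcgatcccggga
Odc1: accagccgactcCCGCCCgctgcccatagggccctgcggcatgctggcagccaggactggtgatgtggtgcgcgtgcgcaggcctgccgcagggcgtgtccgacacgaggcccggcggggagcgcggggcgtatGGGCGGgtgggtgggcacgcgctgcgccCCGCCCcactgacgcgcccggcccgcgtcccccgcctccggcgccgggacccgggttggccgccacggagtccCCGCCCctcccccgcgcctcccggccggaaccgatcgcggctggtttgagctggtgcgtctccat

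The Mycn window held TTTGGCGC at 2 places, beginning 183 and 168 bases before the start site. This motif was chosen after the Mycn sequence was seen. Of the 32851 promoter windows of the table, 0.514% held it at least once. Only the windows of Mycn and Mcm6, which encodes a subunit of the replicative helicase, held it 2 or more times. GGGCGG was present in Mycn at 2 places, in Mycl at 1 and in Odc1 at 4, and in 35.7% of all windows. CACGTG was in none of the 3 sequences and in 7.15% of all windows. These matches describe the letters of the windows, and the peaks at Mycn do not touch the window shown: the nearer T48h peak ended 1379 bp from it.

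Mycn lies on chromosome 12 from 12936093 to 12941836 in mm10 and is transcribed from the minus strand, so its start is at the higher coordinate. The T48h peak nearer the gene start ran from 12939604 to 12940408 and was 805 bp wide. It held 112 tags (exact Poisson 95% interval 92.22 to 134.77). Its deposited fold over the local background was 9.78, its score 294.21 (minus 10 times the log10 of the p-value given by MACS) and its false discovery rate 3.26%. The summit lay 1794 bp from the gene start, and the whole peak lay inside the gene, with its near edge 1428 bp from the start.

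The other T48h peak lay towards the end of Mycn, from 12936283 to 12937695, and was 1413 bp wide. It held 170 tags (exact Poisson 95% interval 145.41 to 197.56). The deposited fold was 9.15, the score 540.35 and the false discovery rate 2.47%. Its summit was 899 bp from the gene's end, and the peak stopped 190 bp short of that end. Both summits sat close to the middle of their peaks, at 54.5% and 50.2% of the width.

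**Figure D1:**
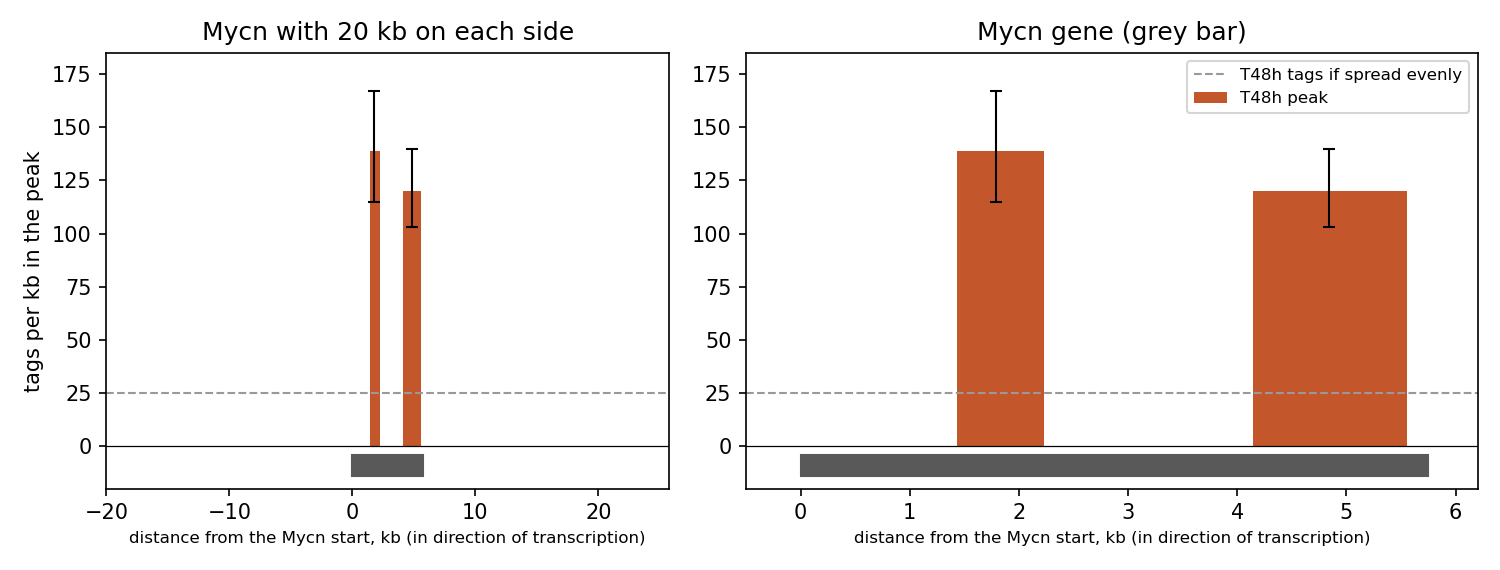
Peaks of HA-hWDR5 at Mycn at T48h. The x axis is the distance from the gene start in kb in the direction of transcription, bars show tags per kb over the width of each peak with exact Poisson 95% intervals, the dashed line is the density that T48h tags would have if spread evenly over the effective genome (24.9 per kb), and the grey bar is the gene; the left panel shows 20 kb on each side, where no other peak lies. The peak nearer the start reached 139 tags per kb and the one nearer the end 120 tags per kb, and there was no T12h peak to draw.

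The pair covered 2218 bp, or 38.6% of the 5744 bp of Mycn, with 1908 bp between them and 3050 bp between the summits. Together they held 282 tags (exact Poisson 95% interval 250.04 to 316.91). The tag density was 139 per kb (115 to 167) in the peak nearer the start and 120 per kb (103 to 140) in the peak nearer the end, so the intervals overlapped. The peak nearer the end had 60.3% of the pair's tags (exact binomial 95% interval 54.3 to 66.0) and 63.7% of its width. By counting error alone the densities of the Mycn peaks were thus not distinguished. The widths were set by the peak calling from the same tags, so this comparison is a description and not a test. The peaks nearer the start and nearer the end held 5.6 and 4.84 times the tags that an even spread over the effective genome would place there. These ratios use all tags of a peak and are not on the scale of the deposited folds of 9.78 and 9.15. The intervals cover counting error only.

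The Mycn peaks stood out by width and score more than by fold. By score they ranked 81 (nearer the end) and 92 (nearer the start) among the 660 T48h peaks. By width they ranked 16 and 109, and by fold 194 and 170. Of the 433 T48h peaks without overlap with a T12h peak, the Mycn peaks ranked 1 and 4 by score, with 83 and 64 as their ranks by fold. The median of these 433 peaks was 25.0 tags, 246 bp, a score of 57.86 and a fold of 7.31. T48h peaks with a fold between 8 and 11, the range around Mycn, numbered 159 and had a median of 24.0 tags and 228 bp, and 5 of them, Mycn's pair included, were at least 805 bp wide. These ranks use the values that chose the gene and are a description.

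Wide peaks of the T48h list were mostly of another kind. Of 109 T48h peaks at least 805 bp wide, 75 overlapped a T12h peak and had a median fold of 19.01 and a median density of 259 tags per kb. The other 34 had a median fold of 3.63 and a median density of 139 tags per kb. Among those 34, a fold of 8 or more was found at the Mycn pair and at 1 peak in Lhx2, which encodes an eye field transcription factor (827 bp, 130 tags, fold 12.15). The remaining 31 had folds from 2.49 to 6.43 and scores from 50.22 to 101.27. In fold the Mycn peaks lay above these 31 and below the median of the wide shared peaks. The limits of 805 bp and a fold of 8 were set from the Mycn peaks, so their place above the 31 follows from the limits. Their densities of 139 and 120 tags per kb were near the median of those 34.

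**Figure D2:**
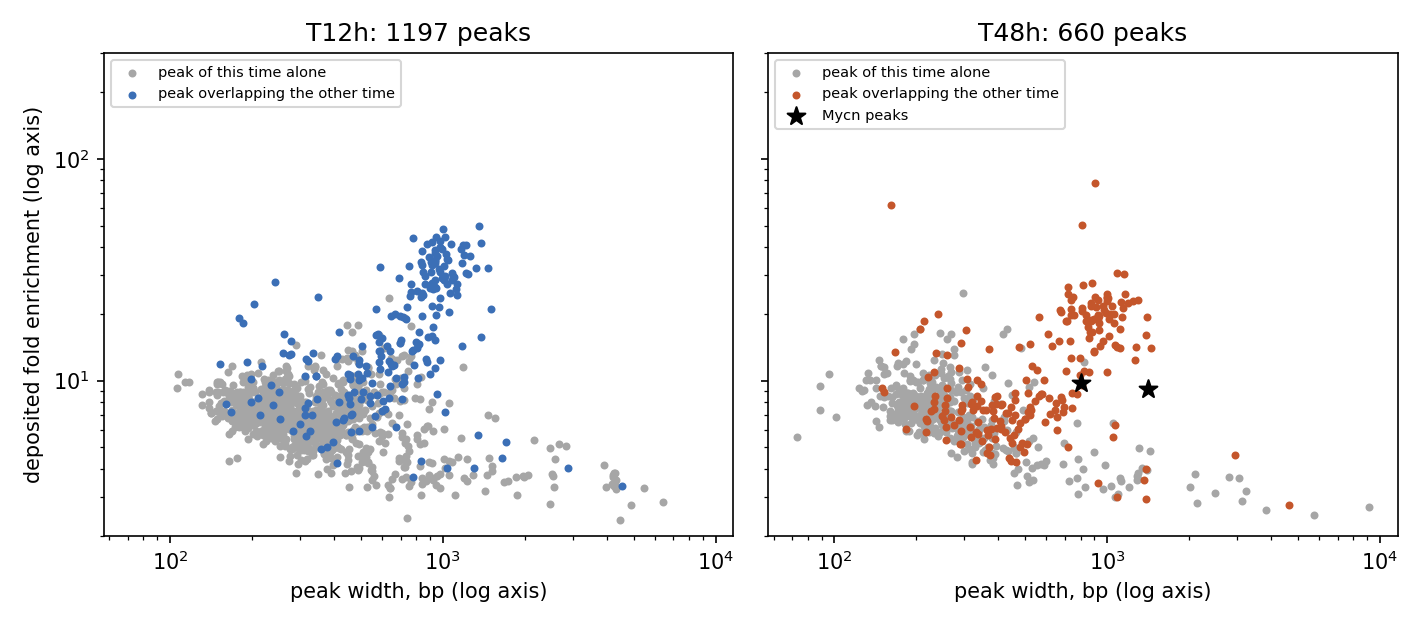
Width in bp (x, log axis) against deposited fold enrichment (y, log axis) for every peak at T12h (left) and T48h (right); coloured points overlap a peak of the other time, grey points do not, and stars are the Mycn peaks. The stars lie at 805 and 1413 bp with folds of 9.78 and 9.15, under most of the wide shared peaks and above the wide grey ones other than the peak in Lhx2 (12.15).

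At T12h no peak was listed at Mycn. The peak table gives no tags outside called peaks, so the T12h tag density over the gene is unknown here, and the absence is that of a call. The nearest T12h summit was 3.57 Mb away, in a peak of 20 tags with a fold of 5.95, and its nearest protein-coding gene was Lpin1. The T12h ChIP library had 55539917 filtered tags against 67116740 at T48h. Scaled to the T12h depth, the T48h tags of the Mycn peaks would be 92.7 (nearer the start) and 141 (nearer the end). The T12h list held 236 and 155 peaks with at least that many tags. In the range of widths from 805 to 1413 bp it held 134 peaks, with 83 to 565 tags and scores from 50.16 upwards. An even spread of T12h tags over the Mycn intervals would give 16.6 and 29.1 tags.

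Mycn stood alone in its surroundings at T48h. The next T48h summit on chromosome 12 was 3.49 Mb away (37 tags, fold 6.71). None of the annotated neighbours within 60 kb held a peak at either time: the lncRNA genes Gm40271 and Gm35208 and the pseudogenes Rpl36-ps3 and Gm48201. Of all T48h peaks, 31 of 660 (4.7%) had another T48h summit within 5 kb, and the median distance to the nearest one was 923 kb.

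A pair of peaks inside 1 gene was rare in both lists. At T48h, 16 of 21887 protein-coding genes (0.0731%) held 2 or more summits, and at T12h 34 did (0.155%). Most peaks had no counterpart at the other time, 433 of 660 at T48h and 972 of 1197 at T12h. Of the 34 T12h genes, 27 held only such peaks, so holding them does not set a gene apart. Of the 16 T48h genes, 9 held only peaks without a T12h counterpart: Mycn, Lhx2 (5 peaks), the glucocorticoid receptor gene Nr3c1 (4), the eye field gene Six6, Zfp978, Zfp993, Gm32966, Pcdh15 and Ptprn2, with 2 each where no number is given. The peaks covered 38.6% of Mycn, 12.4% of Six6, 7.37% of Lhx2 and under 1% of each of the other 6. Mycn, Zfp978 and Zfp993 were the 3 of these 9 genes in which every peak was at least 805 bp wide. That limit is the width of the narrower Mycn peak, so Mycn meets it by construction. In the zinc finger genes the folds were 3.56 to 4.01.

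In the other 7 genes at least 1 peak overlapped a T12h peak. The ribosomal protein gene Rpl36 resembled Mycn in layout, with 2 peaks of 630 and 1015 bp over 39.6% of its 4.15 kb, but with 390 tags and folds of 14.4 and 19.01. The muscle factor gene Myod1 held 3 peaks over 71.6% of its length. Esrrb held 5 peaks, Rnf220 held 3 and Ezh2 held 2. Rara, a retinoic acid receptor gene, and the overlapping Gm46294 counted the same 2 peaks.

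Myc, on chromosome 15 from 61985341 to 61990361, had no peak within 20 kb at either time. The nearest T12h summit lay 1.06 Mb away (58 tags, fold 10.47) and the nearest T48h summit 1.37 Mb away (26 tags, fold 7.31). Pvt1, the lncRNA gene that begins 47.6 kb beyond Myc and is known for enhancers of Myc, spans 222 kb and held no summit at T12h or T48h.

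Mycl, on chromosome 4 from 122995588 to 123002490, likewise had no peak within 20 kb at either time. Its nearest T12h summit was 2.43 Mb away, inside Ctps, which encodes CTP synthase (56 tags, fold 7.93). The nearest T48h summit was 287 kb away, in a peak of 19 tags with a fold of 8.77 and a score of 50.32, close to the lowest score of that list (50.02). The flanking genes Mfsd2a, a lipid transporter gene, and Trit1, a tRNA modification gene, held no summit at either time.

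Set against all genes, members with a peak within 20 kb numbered 0 of 3 at T12h and 1 of 3 at T48h, where 7.69% and 3.49% of protein-coding genes had one. Since the family was chosen on these peaks, nothing is read from the count. Among genes of 4 to 8 kb, the range that holds all 3 members, the shares were 7.27% and 4.08%. At T12h the distances to the nearest summit exceeded the median of all protein-coding genes (0.561 Mb) for all 3 members. At T48h, where that median was 1.11 Mb, Mycl lay nearer than the median, Myc farther, and Mycn held its peaks.

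**Figure D3:**
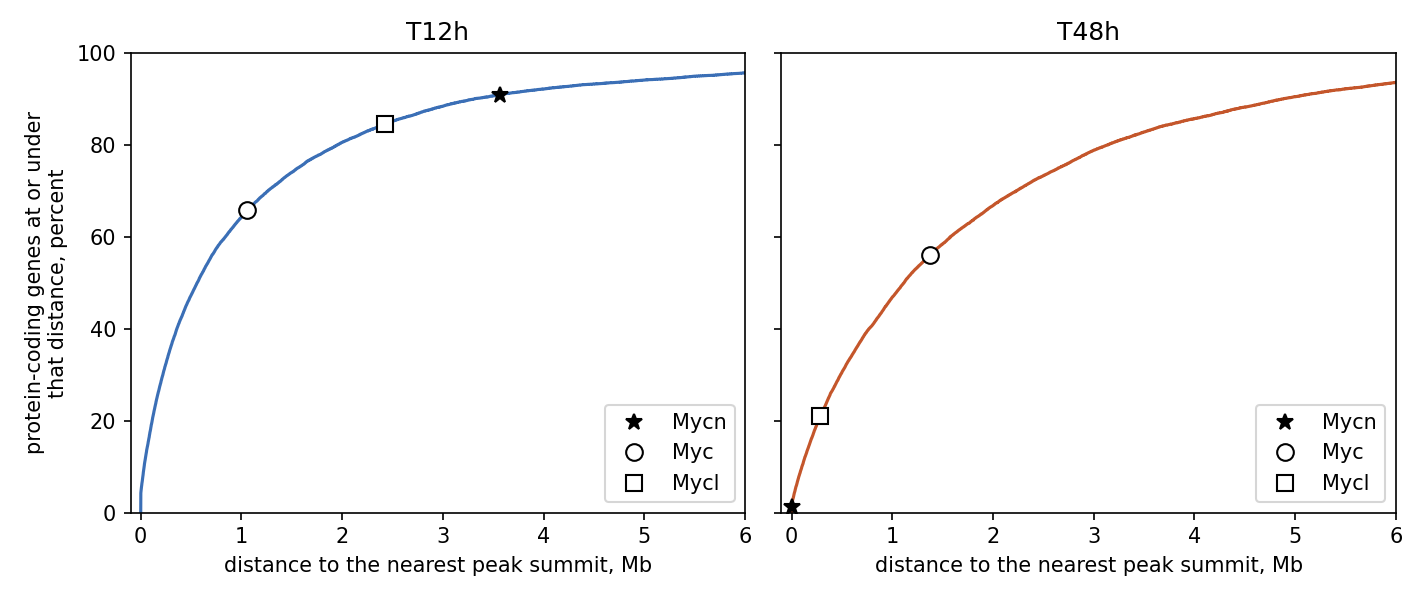
Distance from each protein-coding gene to the nearest peak summit, in Mb (x), against the percent of genes at or under that distance (y), at T12h (left) and T48h (right). Symbols mark Mycn, Myc and Mycl; at T12h they lie at 3.57, 1.06 and 2.43 Mb, and at T48h at 0, 1.37 and 0.287 Mb.

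Of 10 genes of the MAX and MLX network (Max, Mxd1, Mxd3, Mxd4, Mxi1, Mnt, Mga, Mlx, Mlxip and Mlxipl), 1 (10.0%) had a peak within 20 kb at T12h and 0 at T48h, beside 7.69% and 3.49% of all protein-coding genes. With 10 genes these counts do not set the network apart from other genes. The gene with a peak was Mga, which encodes a MAX-binding repressor. Its wider T12h peak held 154 tags over 1182 bp (fold 11.55, score 596.05), with the summit 733 bp inside the gene's lower end. The narrower one held 51 tags over 486 bp (fold 7.03, score 110.28), with its summit 299 bp after the start site of the promoter table. Mga had no peak within 20 kb at T48h. Most peaks were found at 1 time alone, 972 of 1197 at T12h and 433 of 660 at T48h.

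Of 20 genes for MYC cofactors and for enzymes that control MYC stability, 1 (5.0%) had a peak at each time, near the 7.69% and 3.49% of all protein-coding genes. Usp28, which encodes a deubiquitinase that stabilises MYC, had a T12h peak of 49 tags (fold 4.58) whose summit was 385 bp outside the gene. Trrap, which encodes a scaffold of histone acetyltransferase complexes, had a T48h peak of 28 tags (fold 5.36, false discovery rate 13.84%) 3.83 kb outside the gene. Other Myc-related genes, among them Bmyc, Mycs and Mycbp, had none of 5 at either time.

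Of 30 growth genes known as MYC targets, 3 had a peak at T12h and 1 at T48h. Odc1 had a T12h peak of 26 tags over 272 bp (fold 6.07), which overlapped 67 bp of the promoter printed above. Pa2g4, a growth regulator gene, was counted at both times, with 344 tags and a fold of 36.08 at T12h and 332 tags and a fold of 24.52 at T48h. This peak lay 8.86 kb from Pa2g4 and 262 bp (T12h) and 259 bp (T48h) from an end of Rpl41, a ribosomal protein gene. At T48h its score was 1611.83 and its false discovery rate 14.29%, beside 55.31 and 13.84% for the Trrap peak. The deposited rates of these T48h peaks thus did not follow their strength. The T12h peak counted for Ddx21, an RNA helicase gene, was 10.5 kb away (18 tags, fold 7.14) and nearer to an end of Ddx50. Over all 4 lists, 5 of 65 genes (7.69%) had a peak at T12h and 2 of 65 (3.08%) at T48h, close to the 7.69% and 3.49% of all protein-coding genes.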

How the data were processed

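Anti-HA ChIP-seq peak lists of 2 libraries, 1 per rescue time, were used. Per the file headers, the authors called peaks with MACS 1.4.2 on 1 ChIP library against 1 control, with a p cutoff of 1e-05, 1 tag kept per position and 2.70e+09 as the effective genome size. Filtered tags numbered 55539917 (T12h) and 67116740 (T48h) in ChIP and 54011542 and 61209779 in the controls. The submitters' processing notes list mm10, Bowtie2, SAMtools 1.5, HOMER 4.9.1 and deepTools, without their roles. The deposited values per peak are a tag count (whole tags, not normalised), a score (minus 10 times the log10 of the p-value), a fold, which is a ratio to the local background, and a false discovery rate in percent. Folds, scores and rates are the authors' own.

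Summits (start + summit - 1) were set against RefSeq genes of GRCm38.p6, the build mm10, on the numbered chromosomes, X and Y, with Python 3.11.15, numpy 2.4.6, pandas 2.3.3 and scipy 1.17.1. Peaks of the T12h and T48h lists with at least 1 bp in common were called shared. Promoter sequences came from RefSeq (GRCm38.p6). The counting was checked on simulated peaks planted in known genes.

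With 1 library per time no test between times was made. The members and the gene lists were chosen with earlier results of these data known. Named genes were the 3 members, list members with a peak within 20 kb, and genes holding at least as many T48h peaks as Mycn; list members without a peak were named for the network list and in part for the other Myc-related genes, and further names are neighbours or came from the values. Peak sequences, exon positions and input reads were not used here.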

Additional observations from a re-analysis of the deposited data

How the results depend on the processing

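The counts of peaks at Mycn (2 at T48h, 0 at T12h), Myc and Mycl (0 at both times) were the same under all 6 alternatives: distances of 1, 5 and 50 kb, the upper 50% of each list by score, a deposited false discovery rate of at most 5%, which kept 141 of the 660 T48h peaks, and the nearest protein-coding gene alone. No Mycn peak was shared with T12h under 50% overlap of both peaks, summits within 500 bp or the upper 50% of each list. The lists of 65 genes had 3, 3 and 10 members with a T12h peak at 1, 5 and 50 kb. They had 3 in the upper 50% by score and with the nearest gene alone, and 4 at a false discovery rate of at most 5%. At T48h they had 0 members at 1 kb and at a false discovery rate of at most 5%. They had 1 at 5 kb, in the upper 50% and with the nearest gene alone, and 3 at 50 kb. The rate limit did not select by strength. It removed the T48h peak counted for Pa2g4 (score 1611.83, rate 14.29%) and kept the Mycn peak with a score of 294.21 (rate 3.26%). The share of protein-coding genes with a peak at 1, 5 and 50 kb was 4.25%, 5.08% and 12.3% at T12h, and 1.69%, 2.12% and 6.0% at T48h. It was 4.82% and 2.25% in the upper 50% by score and 5.88% and 1.28% at a false discovery rate of at most 5%. With the nearest gene alone it was 4.13% and 1.84%. Genes of 4 to 8 kb, an alternative chosen after the data were seen, gave 7.27% and 4.08%. Smaller windows, shorter lists and single assignment count fewer genes by construction, so a count of 0 could not rise under them. The members' counts of 0 were also fixed at 50 kb, since the nearest summits lay at least 0.287 Mb away. Both Mycn peaks lay inside the gene, so neither distance nor the nearest-gene rule could remove them. With the nearest T12h summit 3.57 Mb from Mycn, no overlap setting could find a shared peak. The score and rate limits kept the Mycn peaks because of values given above. Their scores were 540.35 and 294.21 (T48h median 63.83) and their rates 2.47% and 3.26%. All unchanged member counts were thus settled by known values and are no independent check. No paired analysis was possible because each time had 1 ChIP library. The depth outside called peaks is unknown, so a weaker signal at Myc, Mycl or T12h Mycn could not be looked for.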
